A study of Mus musculus with 20 samples.

Results

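Cadherins and protocadherins were followed in 2 populations of stromal cells from mouse gonadal fat. The members are the protein-coding genes whose symbol is Cdh and a number or begins with Pcdh, 91 of 54304 genes in the table. They comprise 23 cadherins, 12 protocadherins outside the gene clusters, 13 genes of the Pcdha cluster, 22 of the Pcdhb cluster and 21 of the Pcdhg cluster.

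Cadherins are calcium-dependent adhesion receptors that bind like molecules on neighbouring cells, and the classical ones are tied to actin through beta-catenin and alpha-catenin. Different cell types carry different cadherins, so the family serves as a label of epithelial (E-cadherin), mesenchymal (N-cadherin and cadherin-11) and endothelial (VE-cadherin) cells. Protocadherins lack the catenin-binding tail. The clustered ones give single neurons their surface identity, and several of the others bind the WAVE actin regulators, while much less is known of their work in fat.

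The libraries labelled transgenic came from Mural-Zfp423TG mice, by its name a line with the zinc-finger transcription factor Zfp423 in mural cells, and the others from control mice. The labels name no driver, inducer or exact allele for either genotype. Fibro-inflammatory progenitors (FIPs) were sorted as CD45-negative, CD31-negative, PDGFRβ-positive and LY6C-positive cells, and adipogenic precursor cells (APCs) as CD45-negative, CD31-negative and PDGFRβ-positive cells without LY6C and CD9. All mice were male, 8 weeks old in the labels, kept at 30 °C and fed for 1 month on a high-fat diet in which fat supplied 60% of the energy. Each library held polyadenylated RNA pooled from 2 mice. The groups were FIPs labelled transgenic, control FIPs, APCs labelled transgenic and control APCs, with 5 libraries each. With 10 mice per genotype, FIP and APC pools of 1 genotype must share mice, and which of them do is not stated.

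The spacing of the low values gave depths of 7.82 to 8.5 megareads in FIPs labelled transgenic, 6.77 to 8.22 in control FIPs, 6.60 to 8.38 in APCs labelled transgenic and 7.60 to 8.0 in control APCs. Values are log2 CPM, the base-2 logarithm of reads per megaread of the library, and everything at or under 1 CPM is listed as 0. A difference from a group near 0 is therefore understated. Zfp423 itself did not pass between genotypes in FIPs, at 0.06 (adjusted p = 0.932), or in APCs, at -0.26 (adjusted p = 0.108), so genotype is given by label throughout. RNA of the gate gene Ly6c1 was higher in FIPs by 2.14 in mice labelled transgenic and 1.71 in control mice. Pecam1, which encodes the CD31 that was sorted against, was still detected, at 5.98 to 6.65 in FIPs labelled transgenic, 5.74 to 6.28 in control FIPs, 5.89 to 6.58 in APCs labelled transgenic and 6.25 to 6.79 in control APCs.

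The promoters of 3 members are shown, Pcdh8 and Pcdh20 because they had the largest differences between the populations in opposite directions, and Pcdh19 because it had the highest level. Each runs from 250 bases before to 50 after the gene's start, on the minus strand, from RefSeq (GRCm38.p6): Pcdh8 at chr14:79771263-79771562, Pcdh20 at chr14:88471347-88471646 and Pcdh19 at chrX:133688944-133689243. Capitals mark matches to TATAAA, the TATA box, in Pcdh8 and to CANNTG, the E-box bound by basic helix-loop-helix factors, in Pcdh19.
Pcdh8: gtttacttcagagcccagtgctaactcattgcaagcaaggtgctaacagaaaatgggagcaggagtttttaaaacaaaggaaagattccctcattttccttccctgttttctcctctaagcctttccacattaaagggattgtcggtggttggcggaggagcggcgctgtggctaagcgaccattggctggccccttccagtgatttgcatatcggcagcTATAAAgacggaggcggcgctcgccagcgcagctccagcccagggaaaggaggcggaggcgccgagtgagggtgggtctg
Pcdh20: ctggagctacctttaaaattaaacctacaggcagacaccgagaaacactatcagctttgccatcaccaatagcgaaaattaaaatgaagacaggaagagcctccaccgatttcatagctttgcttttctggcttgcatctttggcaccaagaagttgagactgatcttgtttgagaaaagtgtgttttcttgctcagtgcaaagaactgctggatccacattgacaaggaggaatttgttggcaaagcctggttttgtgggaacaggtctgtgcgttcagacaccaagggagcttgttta
Pcdh19: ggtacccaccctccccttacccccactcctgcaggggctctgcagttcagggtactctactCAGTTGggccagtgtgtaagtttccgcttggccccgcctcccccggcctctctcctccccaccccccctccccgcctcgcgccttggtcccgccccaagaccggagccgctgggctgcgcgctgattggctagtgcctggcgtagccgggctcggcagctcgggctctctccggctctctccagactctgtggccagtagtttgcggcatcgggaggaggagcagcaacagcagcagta
Both strands were searched for the TATA box, for the E-box and for CCCNNGGG, the core of the site bound by EBF factors, which are known partners of Zfp423. None of the 3 motifs overlapped another in these windows. The Pcdh8 window held 1 TATA box and the Pcdh19 window 1 E-box, and the Pcdh20 window held none of the 3. For comparison, 13.6% of 32851 promoters of the same length held the TATA box, 72.3% the E-box and 13.7% the EBF core. GC content was 54.3% in the Pcdh8 window, 43.7% in the Pcdh20 window and 67.7% in the Pcdh19 window, with a median of 52.7% over all promoters. A promoter was found for 22 of the 91 members.

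Of the 91 members, 54 were above 0 in all 20 libraries and 23 were listed at 0 in every one. Those at 0 were the cadherins Cdh7, Cdh8, Cdh10, Cdh12, Cdh15, Cdh17, Cdh18, Cdh20, Cdh22 and Cdh26, 11 of the 13 Pcdha genes, Pcdhb1 and Pcdhga10. Most of these cadherins are known from neurons, muscle or gut (Cdh15 is M-cadherin of muscle, Cdh17 the liver-intestine cadherin). Pcdha11 was above 0 in 2 libraries and Pcdh15, the tip-link partner of Cdh23 in hair cells, in 1. The filter of at least 5 libraries above 0 left 66 members for testing, 13 cadherins, 11 protocadherins outside the clusters, Pcdhac2, 21 Pcdhb genes and 20 Pcdhg genes. The other 25 were not tested.

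Per kilobase of exonic sequence, Pcdh19 had the highest mean level over the 20 libraries, at 4.93 log2 CPM per kb. Pcdh19 is a protocadherin whose human counterpart is mutated in an X-linked epilepsy. Cdh5, VE-cadherin, followed at 4.75, although endothelial cells had been sorted against. Next were Pcdhgc3 at 4.26, Pcdh7 at 3.74, Pcdh1 at 3.71, Pcdh18 at 3.55 and Pcdhgb6 at 3.03 log2 CPM per kb. Other genes of the same strand share 38.5% of the exonic bases of Pcdhgc3 and 45.2% of those of Pcdhgb6. How such reads were counted is not stated, so the places of Pcdhg genes are uncertain, also against Pcdh19 and Cdh5. The mesenchymal Cdh11 stood at 2.93, Pcdh12 at 2.86, Cdh13 at 1.67, Cdh2 at 0.11 and Cdh1 at -0.19 on the same scale. Cdh11 thus had the highest level per length among the classical cadherins other than Cdh5, and N-cadherin and E-cadherin lay far below it.

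**Figure D1:**
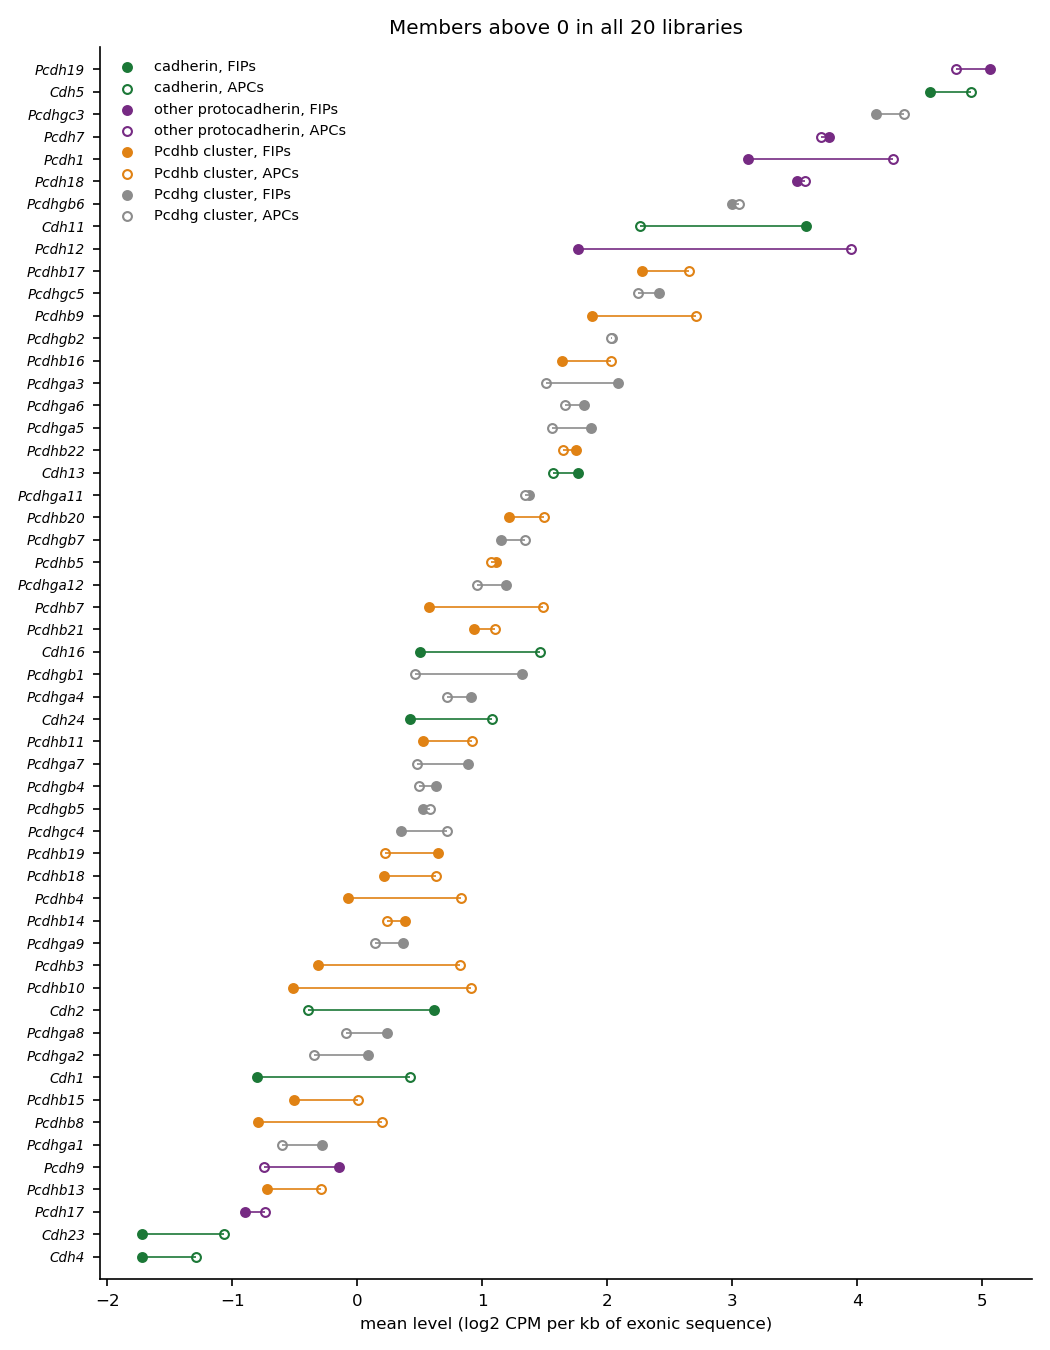
Mean level of the 54 members above 0 in all 20 libraries, in log2 CPM per kilobase of exonic sequence, with filled points for the mean of the 10 FIP libraries and open points for the mean of the 10 APC libraries. Pcdh19 and Cdh5 head the list at means of 4.93 and 4.75, and the widest gaps between the populations belong to Pcdh12, Pcdhb10, Cdh11 and Cdh1. The places of Pcdhg genes are uncertain because they share exons.

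Between FIPs and APCs the cadherin repertoire differed: Cdh11, Cdh2 and Pcdh20 were higher in FIPs, and Cdh19, Pcdh8, Pcdh12, Pcdh1 and most of the called Pcdhb genes were lower. In mice labelled transgenic, 33 of 66 members (50%) passed in limma, 11 higher and 22 lower in FIPs, where 41.7% of all 17435 genes tested were called. In control mice 42 of 66 (63.6%) passed, 17 higher and 25 lower, against 47.5% of all genes. The members' share thus lay above that of all genes in both genotypes, a difference that was not tested. The median difference over the members was -0.09 in mice labelled transgenic and -0.04 in control mice, beside -0.01 and -0.06 over all genes in the same order of genotypes. These 2 comparisons share no library, though 1 estimate of the spread from all 20 libraries served both. Of the members, 10 were higher in FIPs in both genotypes, 18 were lower in both and 0 were called in opposite directions. Another 5 were called in mice labelled transgenic alone and 14 in control mice alone. Calls in both genotypes were not counted over all genes, so these counts are not read as particular to the members. Groups did not overlap for 22 members (33.3%) in mice labelled transgenic and 28 (42.4%) in control mice, beside 29% and 31.4% of all genes.

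Directional shares in the background were 22.7% higher and 19% lower in mice labelled transgenic and 19.6% higher and 27.9% lower in control mice. The split depended on scaling: centring each library on its median moved the share of higher calls over all genes to 44.3% in place of 54.5% in mice labelled transgenic, and the members' split to 10 higher and 24 lower. Mural cell markers such as Notch3 and Des moved in the same direction as the lower members, 6 of 10 lower in mice labelled transgenic and 10 of 10 in control mice. Their summed level was 474.4 to 602.5 CPM in FIPs labelled transgenic, against 790.4 to 923.2 CPM in APCs labelled transgenic. In control mice it was 458.9 to 497.3 CPM in FIPs, against 841.7 to 1166 CPM in APCs, and no marker of the list was at 0 throughout a group. Erythroid genes were lower for 3 of 6 in mice labelled transgenic (308.4 to 559.2 CPM in FIPs, against 453.8 to 1043 CPM in APCs, with Slc4a1 at 0 in these FIPs) and for 6 of 6 in control mice (451.1 to 522.0 CPM in FIPs, against 804.7 to 1544 CPM in APCs). The part of such cells in the results was not tested, and in bulk RNA fewer cells of a type and less RNA per cell cannot be told apart.

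Among the mesenchymal cadherins, Cdh11 and Cdh2 were higher in FIPs in both genotypes. Cdh11 (OB-cadherin, chromosome 8, 102632095 to 102785642, minus strand, GRCm38) is the cadherin of fibroblasts and osteoblasts. Cdh11 values in mice labelled transgenic were 6.83, 6.77, 6.81, 7.11 and 7.43 log2 CPM in FIPs, against 5.22, 5.42, 5.40, 5.17 and 5.38 in APCs. In control mice Cdh11 values were 6.48, 6.5, 6.51, 6.49 and 6.55 in FIPs, against 5.22, 5.58, 5.79, 5.26 and 5.72 in APCs. Every FIP library lay above every APC library, and the control FIPs were close together. The difference was 1.67 (SE 0.11, adjusted p = 1.96e-10) in mice labelled transgenic and 0.99 (SE 0.11, adjusted p = 5.47e-07) in control mice.

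Cdh2 (N-cadherin, chromosome 18, 16588877 to 16809246, minus strand) joins mesenchymal and neural cells. In mice labelled transgenic its values were 3.97, 3.59, 3.65, 3.73 and 4.38 log2 CPM in FIPs, against 2.85, 2.85, 2.44, 2.22 and 2.21 in APCs. For control mice they were 3.27, 3.66, 3.20, 3.41 and 3.43 in FIPs, against 2.32, 2.81, 3.0, 2.81 and 2.64 in APCs. FIPs and APCs did not overlap within either genotype. FIPs exceeded APCs by 1.35 (SE 0.17, adjusted p = 1.26e-06) in mice labelled transgenic and by 0.68 (SE 0.17, adjusted p = 0.00239) in control mice. Both Cdh11 and Cdh2 kept these calls in all 10 fits that left out 1 library, in each genotype.

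The low type II cadherins Cdh6 and Cdh9 passed in 1 genotype each. Cdh6 was listed at 0 in all APCs labelled transgenic and in 4 of 5 control APCs, while FIPs labelled transgenic had 0.25, 0.19, 0.78, 0.49 and 1.30 log2 CPM and control FIPs 0.00, 0.88, 0.00, 0.00 and 0.43. Its difference was 0.60 (adjusted p = 0.0141) in mice labelled transgenic, lost at 0.43 without FIP replicate 5, and 0.20 (adjusted p = 0.412) in control mice. Cdh6 met the filter of at least 5 libraries above 0 through the FIPs, the population where it was higher. APCs listed at 0 show no spread, which can make the adjusted p too small, so this call is not firm. Cdh9 differed by 0.37 (adjusted p = 0.0348) in control mice, a call lost in 8 of 10 fits that left out 1 library (FIP replicates 2, 3 and 4 and any APC replicate; 0.29 to 0.37). Cdh9 also stood near the floor and was above 0 in too few libraries for a stricter filter of at least 10. The limit given for Cdh6 holds for it as well, so its call is not firm either. Cdh13 (T-cadherin), a membrane-anchored cadherin that binds adiponectin, passed in neither genotype, at 0.41 (adjusted p = 0.0634) in mice labelled transgenic and -0.01 (adjusted p = 0.961) in control mice. In mice labelled transgenic it did pass without APC replicate 1 or 4 and with only the groups compared.

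Cdh19 was the cadherin with the largest difference, and it was lower in FIPs. Cdh19 (chromosome 1, 110888326 to 110977584, minus strand) marks Schwann cell precursors and other crest-derived glia. Its values in mice labelled transgenic were 0.84, 0.92, 0.97, 1.62 and 0.50 log2 CPM in FIPs, against 2.94, 2.95, 3.18, 3.34 and 3.34 in APCs. In control mice they were 1.10, 0.00, 0.41, 1.21 and 0.67 in FIPs, against 3.55, 3.23, 3.32, 3.28 and 3.04 in APCs. The APCs of both genotypes kept within 2.94 to 3.55 log2 CPM, and FIPs lay below them without overlap. The difference was -2.18 (SE 0.21, adjusted p = 3.72e-08) in mice labelled transgenic and -2.61 (SE 0.21, adjusted p = 2.88e-09) in control mice.

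Schwann cell markers stood beside Cdh19 as follows. Of 7 tested markers 1 was lower in FIPs in mice labelled transgenic and 5 in control mice, with median differences of -0.25 and -0.82. Their summed level was 28.6 to 54.9 CPM in FIPs labelled transgenic, against 35.9 to 70.4 CPM in APCs labelled transgenic, and 33.5 to 45.8 CPM in control FIPs, against 51.6 to 98.1 CPM in control APCs. The listed marker Foxd3 was at 0 in all 4 groups. Sox10 was at 0 in all FIPs and near the floor in APCs, at 0.00 to 0.47 log2 CPM in those labelled transgenic and 0.00 to 0.65 in control APCs. The part of these markers in the Cdh19 difference was not tested.

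Among the epithelial cadherins, Cdh1 was lower in FIPs in both genotypes, and Cdh16 and Cdh3 were lower in control mice. Cdh1 (E-cadherin, chromosome 8, 106603351 to 106670246, plus strand) had 1.58, 1.92, 1.56, 0.73 and 0.08 log2 CPM in FIPs labelled transgenic, against 3.08, 1.90, 2.26, 2.22 and 1.74 in APCs labelled transgenic. Control mice had 1.62, 2.07, 2.15, 1.21 and 0.97 in FIPs, against 2.40, 2.0, 2.83, 4.04 and 3.67 in APCs. The ranges overlapped in both genotypes. Differences were -1.07 (SE 0.39, adjusted p = 0.0318) in mice labelled transgenic, a call lost in 5 of 10 fits without 1 library (FIP replicates 4 and 5 and APC replicates 1, 3 and 4; -1.07 to -0.79), and -1.38 (SE 0.39, adjusted p = 0.0059) in control mice, which held in all 10.

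Cdh16 (the kidney-specific cadherin, also of other epithelia) had 2.27, 2.63, 2.20, 2.94 and 2.81 log2 CPM in control FIPs, against 3.12, 2.97, 3.78, 5.17 and 4.41 in control APCs, without overlap. It differed by -1.32 (SE 0.37, adjusted p = 0.00651) there and by -0.60 (adjusted p = 0.215) in mice labelled transgenic, where it did not pass. Cdh3 (P-cadherin) stood near the floor and differed by -0.95 (adjusted p = 0.00227) in control mice and -0.17 (adjusted p = 0.586) in mice labelled transgenic. Control APC replicates 4 and 5 had the highest Cdh1 and Cdh16 values of all libraries, and their summed epithelial markers, at 44.5 and 43.3 CPM, were likewise the highest.

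The epithelial markers summed to 3.84 to 11.8 CPM in FIPs labelled transgenic, against 5.62 to 23.9 CPM in APCs labelled transgenic. In control mice the sum was 8.73 to 10.8 CPM in FIPs, against 14.7 to 44.5 CPM in APCs. Of 5 tested markers, 0 were lower and Cldn3 was higher in FIPs in mice labelled transgenic in limma (2 with an unadjusted p under 0.05), while in control mice 4 were lower and Cldn3 was higher. Cldn7, Esrp1 and Grhl2 were at 0 in all FIPs, and Epcam too in control FIPs. Of 10 mesothelial markers, 2 were lower and 1 higher in mice labelled transgenic and 9 were lower in control mice. Their sums were 223.9 to 253.9 CPM in FIPs labelled transgenic, against 180.6 to 253.1 CPM in APCs labelled transgenic, and 190.4 to 274.5 CPM in control FIPs, against 249.4 to 278.6 CPM in control APCs, with no marker at 0 throughout a group. Wt1 was a large part of these sums and the 1 marker called higher in mice labelled transgenic, where it averaged 7.57 ± 0.05 (FIPs) and 7.14 ± 0.09 (APCs) on the log2 CPM scale (SD, n = 5 each). Without Wt1 the sums were 32.6 to 54.4 CPM in FIPs labelled transgenic, against 49.6 to 102.9 CPM in APCs labelled transgenic, and 41.4 to 65.9 CPM in control FIPs, against 71.7 to 171.4 CPM in control APCs. Their part in the Cdh1, Cdh3 and Cdh16 values was not tested.

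Cdh5 (VE-cadherin, chromosome 8, 104101625 to 104144511, plus strand), the adhesion receptor of endothelial junctions, was lower in FIPs of control mice. Control mice had 6.31, 6.73, 6.60, 6.55 and 6.22 log2 CPM in FIPs, against 6.85, 7.16, 7.19, 7.05 and 7.22 in APCs. Mice labelled transgenic had 6.96, 6.88, 6.96, 6.74 and 6.57 in FIPs, against 7.10, 6.92, 6.81, 7.0 and 6.52 in APCs. Control groups did not overlap, while those labelled transgenic did. The difference was -0.61 (SE 0.11, adjusted p = 0.000112) in control mice and -0.05 (SE 0.11, adjusted p = 0.758) in mice labelled transgenic, where it did not pass. Endothelial markers other than Cdh5 were lower for 9 of 10 genes in control mice, with Tek higher, and for 0 of 10 in mice labelled transgenic in limma, again with Tek higher and as the 1 gene with an unadjusted p under 0.05. Their sum was 598.6 to 757.8 CPM in FIPs labelled transgenic, against 480.6 to 639.8 CPM in APCs labelled transgenic, and 532.8 to 671.5 CPM in control FIPs, against 566.6 to 741.5 CPM in control APCs, and none was at 0 throughout a group. Without Tek the sum was 340.8 to 485.4 CPM in FIPs labelled transgenic, against 318.6 to 499.7 CPM in APCs labelled transgenic, and 294.0 to 400.9 CPM in control FIPs, against 412.2 to 610.8 CPM in control APCs. What share of Cdh5 came from endothelial cells was not tested.

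Cdh24, a type II cadherin that binds catenins, was lower in FIPs in both genotypes, with differences of -0.63 (adjusted p = 0.00424) in mice labelled transgenic and -0.69 (adjusted p = 0.00213) in control mice. Cdh23, the large cadherin of hair-cell tip links, was 2.31 ± 0.34 log2 CPM in control FIPs and 3.39 ± 0.16 in control APCs (SD, n = 5 each). That difference of -1.08 (adjusted p = 7.76e-05) passed, and the one of -0.24 (adjusted p = 0.329) in mice labelled transgenic did not. Cdh4 (R-cadherin) differed by -0.89 (adjusted p = 0.00748) in mice labelled transgenic and by 0.04 (adjusted p = 0.921) in control mice. In the cadherins as a group, 3 of 13 were higher and 4 lower in mice labelled transgenic (53.8% called, against 41.7% of all genes). In control mice 3 were higher and 7 lower (76.9%, against 47.5% of all genes).

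**Figure D2:**
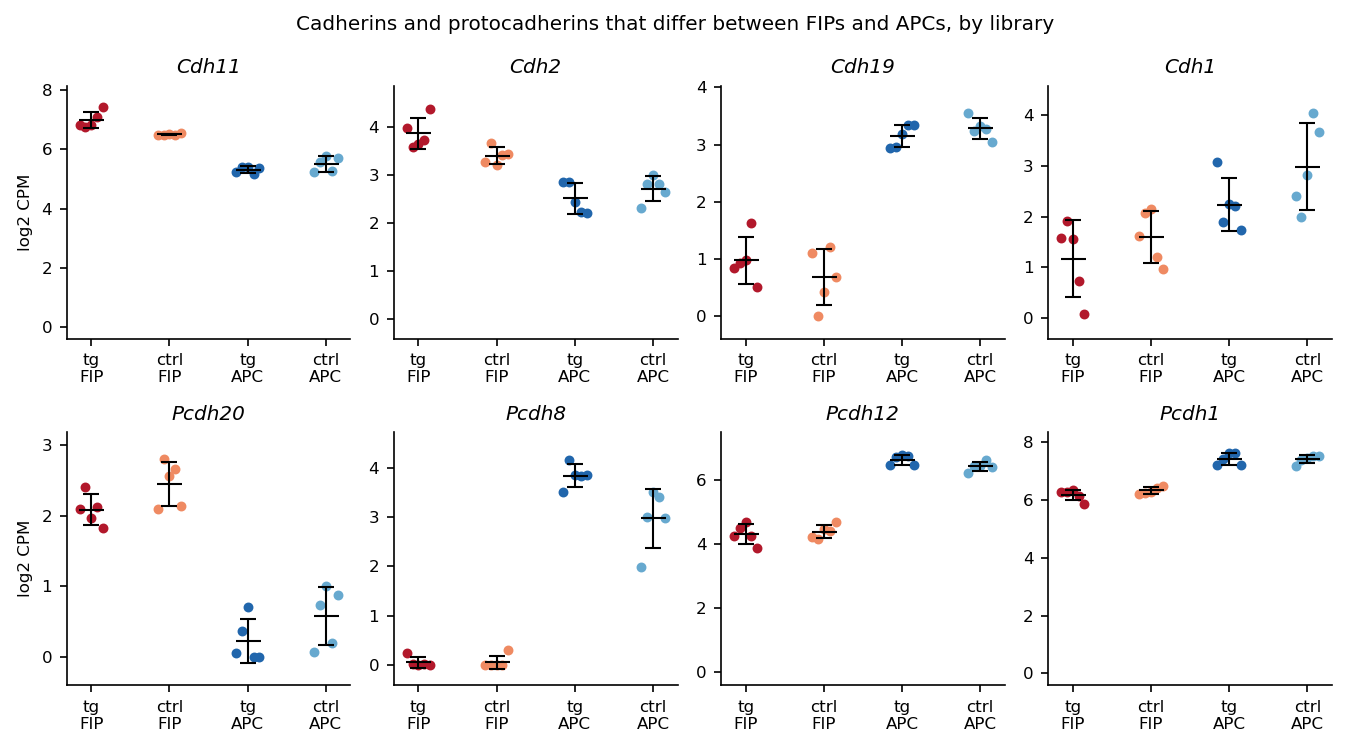
Levels of 8 members in log2 CPM, 1 point per library in 4 groups of 5 (FIPs labelled transgenic, control FIPs, APCs labelled transgenic, control APCs), with bars for the mean and SD. Cdh11, Cdh2 and Pcdh20 are higher in FIPs and Cdh19, Pcdh8, Pcdh12 and Pcdh1 lower without overlap within a genotype, whereas the Cdh1 values overlap.

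Of the 11 tested protocadherins outside the clusters, 3 were higher and 4 lower in FIPs in mice labelled transgenic (63.6% called, against 41.7% of all genes). In control mice 4 were higher and 5 lower (81.8%, against 47.5% of all genes). The largest difference of all members belonged to Pcdh8, the counterpart of the paraxial protocadherin that guides tissue separation in frog embryos. Pcdh8 (chromosome 14, 79766775 to 79771312, minus strand) had 0.25, 0.02, 0.00, 0.03 and 0.00 log2 CPM in FIPs labelled transgenic, against 3.50, 4.15, 3.84, 3.82 and 3.86 in APCs labelled transgenic. In control mice it had 0.00, 0.00, 0.00, 0.00 and 0.30 in FIPs, against 1.98, 3.0, 3.51, 3.40 and 2.97 in APCs. Pcdh8 was at or next to the floor in every FIP library and well above it in every APC library. The difference was -3.77 (SE 0.20, adjusted p = 3.91e-12) in mice labelled transgenic and -2.91 (SE 0.20, adjusted p = 2.89e-10) in control mice, both understated because FIP values were at or near 0. Pcdh8 met the filter of at least 5 libraries above 0 through the APCs, the population where it was higher. FIPs listed at or near 0 show little spread, which can make these adjusted p too small. An antisense gene overlaps 9.61% of its exonic bases.

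Pcdh12 (VE-cadherin-2, chromosome 18, 38267089 to 38284402, minus strand) is known as a protocadherin of endothelial and trophoblast cells. Mice labelled transgenic had 4.26, 4.50, 4.70, 4.26 and 3.90 log2 CPM in FIPs, against 6.48, 6.72, 6.79, 6.76 and 6.48 in APCs. Control mice had 4.22, 4.18, 4.49, 4.43 and 4.69 in FIPs, against 6.24, 6.45, 6.45, 6.65 and 6.43 in APCs. The difference exceeded the range within any group. It came to -2.32 (SE 0.12, adjusted p = 2.38e-12) in mice labelled transgenic and -2.04 (SE 0.12, adjusted p = 2.09e-11) in control mice. Beside it, endothelial markers were lower in FIPs for 9 of 10 genes in control mice and none was called lower in mice labelled transgenic, with the sums given for Cdh5. Their part in the Pcdh12 difference was not tested.

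Pcdh1 (chromosome 18, 38185914 to 38212053, minus strand), a protocadherin of airway epithelium, had 6.27, 6.27, 6.36, 6.14 and 5.88 log2 CPM in FIPs labelled transgenic, against 7.21, 7.44, 7.64, 7.63 and 7.22 in APCs labelled transgenic. Its control values were 6.23, 6.25, 6.30, 6.43 and 6.49 in FIPs, against 7.19, 7.41, 7.45, 7.52 and 7.52 in APCs. No library of one population reached the other. The difference was -1.24 (SE 0.10, adjusted p = 1.12e-09) in mice labelled transgenic and -1.08 (SE 0.10, adjusted p = 1.16e-08) in control mice. Pcdh11x, an X-linked delta protocadherin, stood near the floor in FIPs and ranged from 0.86 to 2.06 in APCs labelled transgenic and from 0.24 to 2.57 in control APCs. It differed by -0.98 (adjusted p = 0.0323) in mice labelled transgenic, a call lost in 4 of 10 fits without 1 library (FIP replicates 2 and 3 and APC replicates 1 and 4; -0.87 to -0.83), and by -1.13 (adjusted p = 0.0133) in control mice.

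Pcdh20 (chromosome 14, 88464743 to 88471396, minus strand), a delta protocadherin known from brain, ran the other way. Its values were 2.10, 2.41, 1.97, 2.12 and 1.82 log2 CPM in FIPs labelled transgenic, against 0.06, 0.36, 0.71, 0.00 and 0.00 in APCs labelled transgenic. Control FIPs had 2.10, 2.80, 2.56, 2.66 and 2.14, against 0.07, 0.74, 1.0, 0.20 and 0.87 in control APCs. All FIP libraries had 1.82 log2 CPM or more and all APC libraries 1 or less. FIPs were higher by 1.86 (SE 0.20, adjusted p = 1.47e-07) in mice labelled transgenic and 1.88 (SE 0.20, adjusted p = 1.46e-07) in control mice. Between the genotypes this difference itself differed by -0.02 (95% interval -0.60 to 0.57).

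Pcdh10, which recruits the WAVE complex at cell contacts, was higher in FIPs by 1.07 (adjusted p = 0.000681) in mice labelled transgenic and 0.66 (adjusted p = 0.0209) in control mice. It was listed at 0 in 3 of 5 control APCs, and its control call was lost without FIP replicate 2 (0.53) or FIP replicate 4 (0.53). Pcdh9 differed by 0.86 (adjusted p = 7.75e-05) in control mice, where the groups did not overlap, and by 0.33 (adjusted p = 0.0821) in mice labelled transgenic. Pcdh17, a delta protocadherin of axons and synapses, was lower in control FIPs, at -0.55 (adjusted p = 0.026), a call lost in 4 of 10 fits without 1 library (FIP replicates 1 and 5 and APC replicates 4 and 5; -0.52 to -0.40), and differed by 0.23 (adjusted p = 0.379) in mice labelled transgenic.

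Among the abundant members, Pcdh19 differed little and Pcdh7 and Pcdh18 did not pass. Pcdh19 (chromosome X, 133582860 to 133688987, minus strand) had 8.35, 8.43, 8.36, 8.36 and 8.39 log2 CPM in FIPs labelled transgenic, against 8.0, 8.35, 8.32, 8.18 and 8.19 in APCs labelled transgenic. Control mice had 8.50, 8.39, 8.50, 8.51 and 8.67 in FIPs, against 8.04, 8.17, 8.12, 8.20 and 8.22 in APCs. Only the control groups did not overlap. The difference was 0.36 (SE 0.06, adjusted p = 2.4e-05) in control mice and 0.17 (SE 0.06, adjusted p = 0.0192) in mice labelled transgenic, where it was lost without APC replicate 1 (0.12) and under median centring (0.12, adjusted p = 0.119). Pcdh7, a delta protocadherin, differed by 0.07 in mice labelled transgenic (95% interval -0.02 to 0.16) and 0.06 in control mice (-0.04 to 0.15), and an antisense gene overlaps 21.1% of its exonic bases. For Pcdh18 the differences were -0.11 (-0.24 to 0.02) in mice labelled transgenic and -0.01 (-0.14 to 0.12) in control mice. In this fit the intervals of both genes keep the differences below 0.25 in size. Pcdh18 did pass in mice labelled transgenic under median centring and without APC replicate 5.

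The clustered protocadherins lie in tandem on the plus strand of chromosome 18, Pcdha at 36930184 to 37187661, Pcdhb at 37264938 to 37524479 and Pcdhg at 37661793 to 37841873 (GRCm38). Each Pcdhb gene is a single unit with its own promoter, whereas Pcdha and Pcdhg genes splice their own first exon to constant exons shared across the cluster. In the annotation, 31.5 to 66.8% of the exonic bases of each Pcdhg gene (median 44.6%) are shared with other genes of the same strand, against 0 to 9.67% for Pcdhb genes. How such shared reads were counted is not stated in the labels, so Pcdhg and Pcdha values are uncertain. Of the Pcdha cluster little was detected: 11 of 13 genes were listed at 0 in every library, which allows up to 1 CPM for each, and Pcdhac2, at 0.00 to 0.23 log2 CPM in FIPs labelled transgenic, 0.00 to 0.88 in control FIPs and 0 in all APCs, did not pass.

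Pcdhb genes were mostly lower in FIPs. In each genotype 12 of 21 tested genes were lower and 1 was higher (61.9% called), and 10 were lower and 1 higher in both. Over all genes 41.7% were called in mice labelled transgenic (19% lower) and 47.5% in control mice (27.9% lower). Groups did not overlap for 8 Pcdhb genes (38.1%) in mice labelled transgenic and 10 (47.6%) in control mice, beside 29% and 31.4% of all genes. The excess over all genes was not tested, and calls in both genotypes were not counted over all genes. Summed over the cluster, the level was 137.6, 162.1, 165.9, 164.7 and 167.4 CPM in FIPs labelled transgenic, against 175.9, 217.4, 220.0, 202.8 and 191.7 CPM in APCs labelled transgenic. In control mice the sums were 147.4, 147.5, 150.9, 150.9 and 169.2 CPM in FIPs, against 193.1, 198.4, 205.9, 194.5 and 204.0 CPM in APCs. Every FIP sum lay below every APC sum in both genotypes. The mean sums were 159.5 ± 12.4 CPM in FIPs labelled transgenic and 201.6 ± 18.3 CPM in APCs labelled transgenic, and 153.2 ± 9.12 CPM in control FIPs and 199.2 ± 5.64 CPM in control APCs (SD, n = 5 each).

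Pcdhb10 (chromosome 18, 37411664 to 37414514, plus strand) had the largest difference of the cluster. It had 0.93, 1.04, 0.56, 1.11 and 0.87 log2 CPM in FIPs labelled transgenic, against 2.28, 2.59, 2.40, 2.49 and 2.28 in APCs labelled transgenic. Control mice had 0.80, 1.20, 0.92, 0.80 and 1.77 in FIPs, against 2.24, 2.51, 2.55, 2.05 and 2.84 in APCs. The populations did not overlap in either genotype. The difference was -1.51 (SE 0.18, adjusted p = 6.77e-07) in mice labelled transgenic and -1.34 (SE 0.18, adjusted p = 3.64e-06) in control mice.

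Its neighbours followed with smaller values. Pcdhb3 differed by -1.26 in mice labelled transgenic and -1.0 in control mice, Pcdhb6 by -1.08 and -1.15, Pcdhb8 by -1.10 and -0.88, and Pcdhb9 by -0.94 and -0.72, in that order of genotypes. Pcdhb6 was listed at 0 in 2 of 5 FIPs labelled transgenic and 4 of 5 control FIPs. It met the filter through the APCs, so its differences are understated and its adjusted p can be too small. Pcdhb4, Pcdhb7, Pcdhb11, Pcdhb16 and Pcdhb17 were also lower in both, between -1.07 and -0.36. Along the chromosome, 8 of the 10 genes lower in both genotypes lay between Pcdhb3 and Pcdhb11, where the exception was Pcdhb5 (0.11 in mice labelled transgenic and -0.04 in control mice, neither passing), and Pcdhb16 and Pcdhb17 lay beyond. This order was noticed after the values were seen. Pcdhb19, towards the far end, was the 1 higher gene, by 0.46 (adjusted p = 0.00785) in mice labelled transgenic and 0.39 (adjusted p = 0.0188) in control mice. Pcdhb12 and Pcdhb18 passed in mice labelled transgenic alone and Pcdhb13 and Pcdhb15 in control mice alone, and an antisense gene overlaps 63.5% of the exonic bases of Pcdhb12. The Pcdhb12 call was lost without APC replicate 2 (-0.81), and the Pcdhb18 call without FIP replicate 1 or 2 or APC replicate 3 or 4 (-0.51 to -0.44). The weakest of the calls was Pcdhb11, lost in 5 of 10 fits without 1 library in mice labelled transgenic (FIP replicates 1 and 5 and APC replicates 2, 3 and 4; -0.40 to -0.34) and in 9 of 10 in control mice (all but FIP replicate 5; -0.38 to -0.32).

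**Figure D3:**
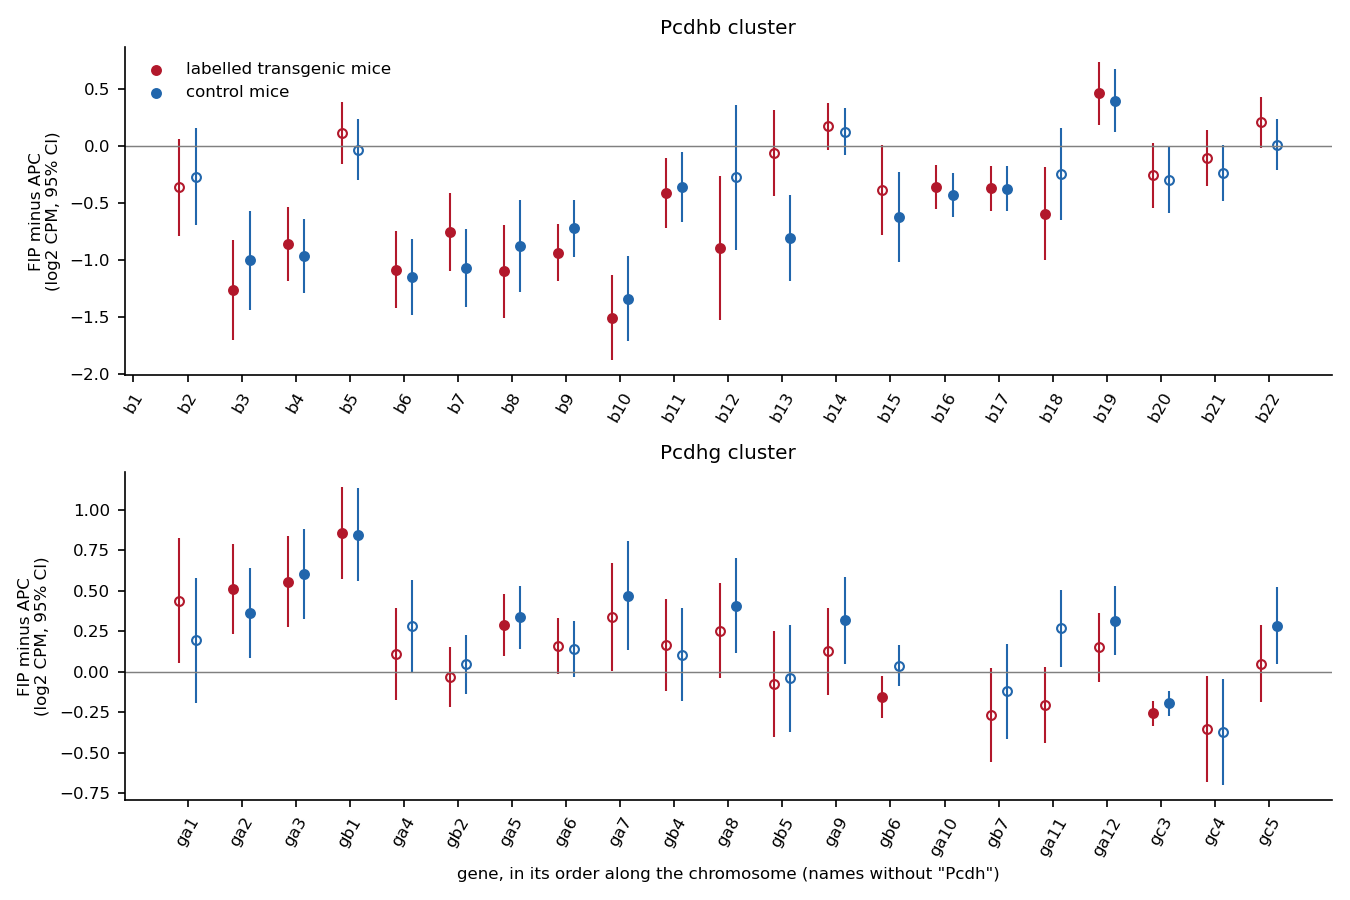
Difference between FIPs and APCs in log2 CPM with its 95% confidence interval for each tested gene of the Pcdhb cluster (upper panel) and the Pcdhg cluster (lower panel), in chromosomal order, for mice labelled transgenic and control mice, with filled points for adjusted p of 0.05 or less. Pcdhb10 lies lowest at -1.51 in mice labelled transgenic and -1.34 in control mice, and Pcdhgb1 highest at 0.86 and 0.85.

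Of the Pcdhg genes, 4 of 20 were higher and 2 lower in FIPs in mice labelled transgenic (30% called, against 41.7% of all genes), and 9 were higher and 1 lower in control mice (50%, against 47.5% of all genes). Pcdhga2, Pcdhga3, Pcdhgb1 and Pcdhga5 were higher in both, and Pcdhgc3 was lower in both. Pcdhgb1 (chromosome 18, 37680233 to 37841870, plus strand) had 3.47, 3.76, 3.86, 3.84 and 3.90 log2 CPM in FIPs labelled transgenic, against 2.57, 2.91, 3.0, 3.33 and 2.74 in APCs labelled transgenic. Control mice had 3.92, 3.88, 3.88, 4.10 and 3.85 in FIPs, against 2.82, 3.24, 3.46, 2.95 and 2.93 in APCs. FIPs lay above APCs without overlap in both genotypes. The difference was 0.86 (SE 0.14, adjusted p = 3.02e-05) in mice labelled transgenic and 0.85 (SE 0.14, adjusted p = 3.93e-05) in control mice.

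Pcdhga3 differed by 0.56 in mice labelled transgenic and 0.60 in control mice, and Pcdhga2 by 0.51 and 0.36 in that order of genotypes. The control call of Pcdhga2 was lost without FIP replicate 2 or 3 or APC replicate 1, 3 or 5 (0.28 to 0.36), and the call of Pcdhga5 in mice labelled transgenic without FIP replicate 5 (0.20). Pcdhgc3, the C-type gene reported to act outside neurons as well, was the most abundant clustered gene. Its values were 6.53, 6.58, 6.53, 6.61 and 6.62 log2 CPM in FIPs labelled transgenic, against 6.79, 6.82, 6.76, 6.89 and 6.90 in APCs labelled transgenic, and 6.59, 6.63, 6.68, 6.65 and 6.65 in control FIPs, against 6.95, 6.85, 6.79, 6.80 and 6.79 in control APCs. FIPs were below APCs in every library, though by little, at -0.26 (SE 0.04, adjusted p = 7.96e-06) in mice labelled transgenic and -0.20 (SE 0.04, adjusted p = 0.00021) in control mice. An antisense gene overlaps 28.4% of its exonic bases.

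Summed, the 3 Pcdhgc genes reached 141.6 ± 7.17 CPM in FIPs labelled transgenic and 160.8 ± 4.23 CPM in APCs labelled transgenic, and 149.9 ± 9.36 CPM in control FIPs and 158.8 ± 2.73 CPM in control APCs (SD, n = 5 each). The 18 Pcdhga and Pcdhgb genes reached 226.0 ± 18.5 CPM in FIPs labelled transgenic and 208.2 ± 13.2 CPM in APCs labelled transgenic, and 222.4 ± 9.30 CPM in control FIPs and 189.8 ± 12.1 CPM in control APCs. Only in control mice did the A and B type sums not overlap between the populations. Pcdhgb6 was lower in FIPs in mice labelled transgenic alone, at -0.16, a call lost in 6 of 10 fits without 1 library (FIP replicates 1 to 3 and APC replicates 2 to 4; -0.17 to -0.12). In control mice 5 of the higher Pcdhg calls (Pcdhga7, Pcdhga8, Pcdhga9, Pcdhga12 and Pcdhgc5) were not called in mice labelled transgenic, and each was lost in 1 to 7 of 10 fits without 1 library. The fits in question left out FIP replicate 2 or APC replicate 5 for Pcdhga7 (0.38 to 0.39), FIP replicate 1 or APC replicate 2 for Pcdhga8 (0.35 to 0.36) and APC replicate 5 for Pcdhga12 (0.26). They left out FIP replicates 1, 2, 3 and 5 and APC replicates 1, 2 and 5 for Pcdhga9 (0.25 to 0.34), and FIP replicates 2, 4 and 5 and APC replicates 1, 2 and 3 for Pcdhgc5 (0.18 to 0.30).

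Between genotypes in FIPs, 0 of 66 members passed in limma, where 0.373% of all genes did (0.241% higher and 0.132% lower). An unadjusted p under 0.05 was found for 7 of 66 members, beside 1843 of 17435 genes, so the members did not stand out. Cdh11 came closest. It had 6.83, 6.77, 6.81, 7.11 and 7.43 log2 CPM in FIPs labelled transgenic, against 6.48, 6.5, 6.51, 6.49 and 6.55 in control FIPs. It was the 1 member of 66 (1.52%) whose groups did not overlap, beside 2.89% of all genes. The difference was 0.48 (SE 0.11, adjusted p = 0.0676), with a 95% interval of 0.24 to 0.72. Pcdh10 differed by 0.89 (adjusted p = 0.0961), Pcdh17 by 0.51 (adjusted p = 0.327), Cdh2 by 0.47 (adjusted p = 0.278), Cdh13 by 0.37 (adjusted p = 0.451), Cdh5 by 0.34 (adjusted p = 0.211) and Pcdh19 by -0.14 (adjusted p = 0.381). None of the 41 tested Pcdhb and Pcdhg genes had an unadjusted p under 0.05, and their differences lay between -0.31 and 0.30. Beside Cdh5, 0 of 10 endothelial markers passed in limma and 7 had an unadjusted p under 0.05, with a median difference of 0.32.

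In APCs 4 of 66 members (6.06%) passed between genotypes, 3 higher and 1 lower, where 8.01% of all genes were called, so that the share was close to the background. Over all genes 2.1% were called higher and 5.91% lower, and centring each library on its median moved the share of higher calls to 48.5% in place of 26.2%. At an unadjusted p under 0.05 there were 11 of 66 members, beside 4444 of 17435 genes. Pcdh8, at or next to the floor in FIPs, was higher in APCs labelled transgenic. Its values were 3.50, 4.15, 3.84, 3.82 and 3.86 log2 CPM in APCs labelled transgenic, against 1.98, 3.0, 3.51, 3.40 and 2.97 in control APCs. The ranges touched, since the highest control library reached 3.51 and the lowest library labelled transgenic 3.50. The difference was 0.86 (SE 0.20, adjusted p = 0.0222), and without control APC replicate 1, the lowest library, it was 0.61. Without APC replicate 2 (0.78) or 5 (0.86) of the mice labelled transgenic, or replicate 5 of the control mice (0.86), the call was lost and 0 members passed in limma. Fitted on the 10 APC libraries alone, 0 of the 4 calls passed, with limma adjusted p of 0.132 to 0.153.

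Cdh23 was lower in APCs labelled transgenic, at 3.36, 2.17, 2.50, 2.58 and 2.63 log2 CPM, against 3.30, 3.49, 3.60, 3.18 and 3.39 in control APCs. Replicate 1 of the APCs labelled transgenic lay among the controls and the other 4 libraries below them all. The difference was -0.74 (SE 0.19, adjusted p = 0.0274), lost in 6 of 10 fits without 1 library (-0.74 to -0.62), those without APC replicates 2 to 5 of mice labelled transgenic and replicates 3 and 5 of control mice. Pcdhga11 was higher, at 3.59, 3.82, 3.70, 3.85 and 3.96 log2 CPM in APCs labelled transgenic, against 3.41, 3.49, 3.23, 3.70 and 3.15 in control APCs, and so was Pcdhgb6, at 5.30, 5.41, 5.49, 5.45 and 5.28, against 5.24, 5.23, 5.19, 5.27 and 4.99. Pcdhgb6 was the 1 member whose groups did not overlap (1.52%, beside 2.92% of all genes). Pcdhga11 differed by 0.39 (SE 0.11, adjusted p = 0.0432) and Pcdhgb6 by 0.20 (SE 0.06, adjusted p = 0.0488), and these calls were lost in 6 and 7 of 10 fits without 1 library (0.33 to 0.41 and 0.15 to 0.23). For both these were the fits without APC replicates 2 to 5 of mice labelled transgenic and replicates 3 and 5 of control mice, and for Pcdhgb6 also without replicate 4 of control mice. Both genes share exons with the rest of their cluster, as stated above.

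Other members had wider differences in APCs that did not pass. Cdh16 differed by -1.02 (adjusted p = 0.0925), Cdh1 by -0.75 (adjusted p = 0.233), Cdh3 by -0.64 (adjusted p = 0.09) and Cdh4 by 0.61 (adjusted p = 0.136). Without replicate 1 of the APCs labelled transgenic, which had the highest summed epithelial, Schwann cell, macrophage and erythroid markers of its group, 8 members passed, among them Cdh16, Cdh3, Cdh4 and Pcdhga12 in addition to the 4. In these APCs 7 of 10 macrophage markers were lower (174.9 to 294.5 CPM in APCs labelled transgenic, against 271.3 to 453.4 CPM in control APCs), as were 6 of 6 erythroid genes (453.8 to 1043 CPM, against 804.7 to 1544 CPM) and 6 of 6 FIP markers (204.7 to 246.8 CPM, against 295.3 to 322.6 CPM), with no marker at 0 throughout a group. Of 5 tested epithelial markers 1 was lower (5.62 to 23.9 CPM in APCs labelled transgenic, against 14.7 to 44.5 CPM in control APCs). Of 10 mesothelial markers 2 were lower and 0 higher in limma, and 9 had an unadjusted p under 0.05. Without Wt1 they summed to 49.6 to 102.9 CPM in APCs labelled transgenic, against 71.7 to 171.4 CPM in control APCs. Their part in the genotype differences was not tested.

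**Figure D4:**
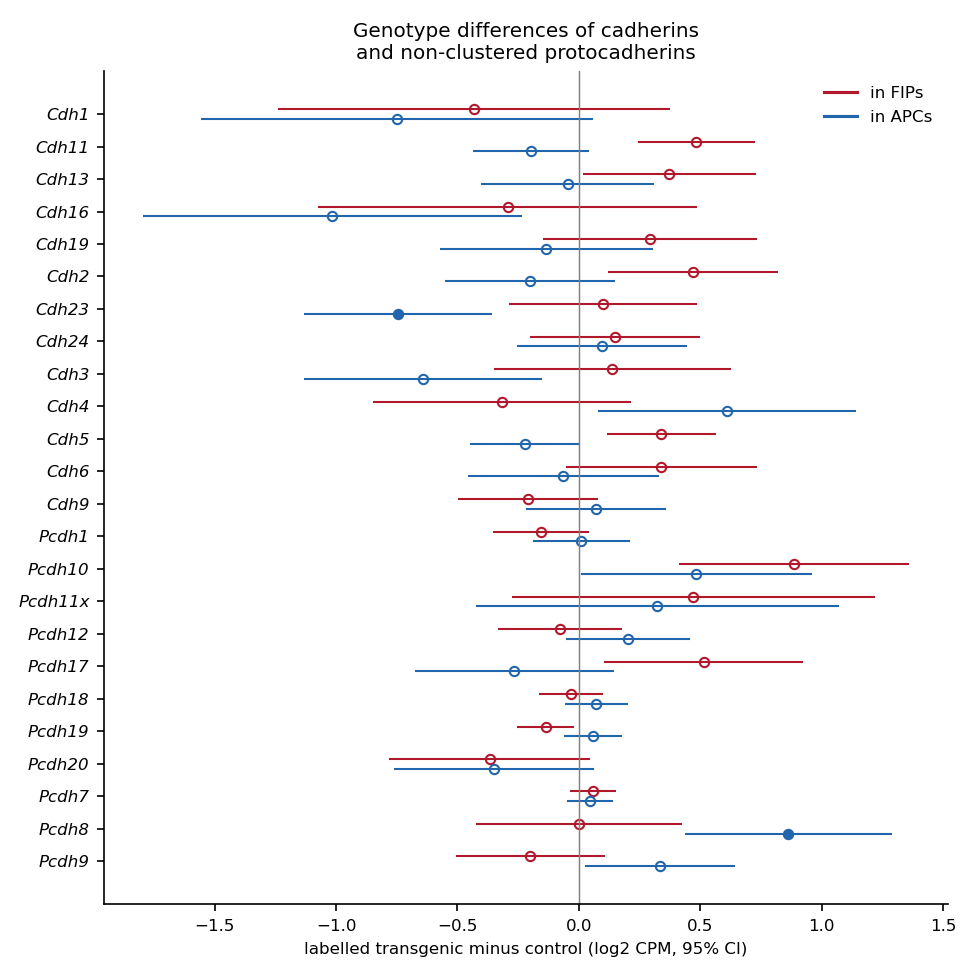
Difference between libraries labelled transgenic and control libraries in log2 CPM, with 95% confidence intervals, for the 24 tested cadherins and non-clustered protocadherins in FIPs and in APCs, with filled points for adjusted p of 0.05 or less. The filled points are Pcdh8 at 0.86 and Cdh23 at -0.74, both in APCs.

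The interaction, which asks whether the genotype difference in FIPs departs from that in APCs, passed for 0 of 66 members in limma, with 0% of all genes called. At an unadjusted p under 0.05 there were 13 members, beside 2388 of 17435 genes. Cdh4 had the lowest interaction, -0.93 (95% interval -1.68 to -0.18), followed by Pcdh8 at -0.86 (-1.46 to -0.26). Cdh23 had the highest, 0.84 (0.30 to 1.39), with Cdh11 at 0.68 (0.34 to 1.02) and Cdh2 at 0.67 (0.18 to 1.17). Members that passed between FIPs and APCs in 1 genotype alone are therefore not shown to differ between genotypes.

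The partners of these receptors were read in the same fit. Of 71 tested partners, 26 were higher and 15 lower in FIPs in mice labelled transgenic, where 41.7% of all genes were called. In control mice 25 were higher and 20 lower, where 47.5% of all genes were called. No list was tested against these shares. Among 11 tested catenins and junction adaptors, 3 were higher and 4 lower in FIPs in mice labelled transgenic, and 3 were higher and 7 lower in control mice. Ctnnb1, which encodes beta-catenin, was higher by 0.25 (adjusted p = 6.75e-08) in mice labelled transgenic and 0.24 (adjusted p = 1.4e-07) in control mice, and Ctnna1, alpha-catenin, by 0.17 and 0.19 in that order. Jup, the related plakoglobin of desmosomes, was lower, at -0.97 (adjusted p = 4.73e-09) in mice labelled transgenic and -0.89 (adjusted p = 1.85e-08) in control mice. The plakophilin gene Pkp2 was lower, at -0.97 in mice labelled transgenic and -1.26 in control mice. Dsp, desmoplakin, was higher by 3.10 (adjusted p = 6.12e-08) in mice labelled transgenic and 2.83 (adjusted p = 2.61e-07) in control mice, the largest value among the partners, while only 3 of the 10 desmosomal genes passed the filter on low values. Of these 3, 2 were higher in mice labelled transgenic, and 1 was higher and 1 lower in control mice.

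Of 9 tested giant cadherins and their kinase Fjx1, 3 were higher and 3 lower in mice labelled transgenic, and 2 were higher and 5 lower in control mice. The planar polarity cadherins Dchs1 and Dchs2 went in opposite directions. Dchs1 was higher in FIPs by 0.82 (adjusted p = 1.04e-08) in mice labelled transgenic and 1.07 (adjusted p = 1.7e-10) in control mice. Dchs2 was lower, at -1.91 (adjusted p = 3.67e-13) in mice labelled transgenic and -1.77 (adjusted p = 1.53e-12) in control mice. Nectin1 and Nectin3, adhesion receptors that assemble junctions with cadherins, were the 2 of 4 nectins that were higher, in both genotypes (Nectin1 0.39 and Nectin3 0.37 in mice labelled transgenic). Adam10, the main sheddase of N-cadherin and Pcdhg proteins, was higher by 0.57 (adjusted p = 4.75e-12) in mice labelled transgenic and 0.53 (adjusted p = 1.73e-11) in control mice. Over 8 sheddase and gamma-secretase genes, 3 were higher and 1 lower in mice labelled transgenic, and 4 were higher and 1 lower in control mice. Of 6 tested other cadherin-repeat genes, 3 were higher and 1 lower in mice labelled transgenic and 2 were higher and 2 lower in control mice, with Clstn2 higher by 1.14 in mice labelled transgenic and 0.61 in control mice.

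Zeb1, a repressor of E-cadherin, was higher in FIPs by 0.49 (adjusted p = 8.52e-10) in mice labelled transgenic and 0.54 (adjusted p = 2.12e-10) in control mice. Of the 7 tested transcription factors of epithelial-mesenchymal transition, 3 were higher and 2 lower in mice labelled transgenic, and 3 were higher and 1 lower in control mice. Snai1, Twist2 and Zeb2 had lower means in FIPs in both genotypes. In mice labelled transgenic Snai1 averaged 4.80 in FIPs and 5.14 in APCs, and Twist2 3.53 and 3.95. In control mice Snai1 averaged 4.83 and 4.98, and Twist2 3.44 and 3.73. The part of these factors in the Cdh1 difference was not tested. Protocadherin effectors, the WAVE complex and focal adhesion kinases, had 6 of 12 higher and 2 lower in mice labelled transgenic, and 7 higher and 2 lower in control mice. Wasf1 was higher by 1.79 (adjusted p = 1.53e-07) in mice labelled transgenic and 1.34 (adjusted p = 8.4e-06) in control mice, and the kinase gene Ptk2b by 1.64 (adjusted p = 1.48e-12) in mice labelled transgenic and 1.26 (adjusted p = 1.25e-10) in control mice. Regulators of the clusters, such as Ctcf and cohesin, moved little: 1 of 11 was higher and 2 lower in mice labelled transgenic, and 1 was higher and 1 lower in control mice, with the largest passing value -0.44 for Dnmt3b in mice labelled transgenic.

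Between genotypes 0 of these 71 tested partners passed in FIPs in limma, where 0.373% of all genes did. At an unadjusted p under 0.05 there were 3, beside 1843 of 17435 genes. In APCs 6 of the 71 passed, a share close to the 8.01% of all genes called there. Dchs1 was higher in APCs labelled transgenic by 0.25 (adjusted p = 0.0425) and the WAVE gene Wasf3 by 0.29 (adjusted p = 0.0469). The other 4 were lower: the planar polarity cadherins Celsr1 at -1.12 (adjusted p = 0.0284) and Celsr2 at -0.96 (adjusted p = 0.0415), Cdhr5 of microvilli at -1.19 (adjusted p = 0.0338) and Ptk2b at -0.50 (adjusted p = 0.00436).

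For 3 members the tested genes with the most similar pattern over the 20 libraries were read off as a description, which mostly reflects the split between FIPs and APCs. Pcdh8 was nearest to Scly (Pearson r = 0.985), Lifr (0.982) and Serpina3g (0.980). Cdh19 was nearest to Mpp3 (r = 0.979), Map3k20 (0.974) and Sgip1 (0.973). Pcdhb10 was nearest to Plxnd1 (r = 0.963), Notch1 (0.954) and Extl3 (0.951).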

How the data were processed

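RNA of sorted FIPs and APCs was sequenced in 20 libraries. The authors deposited log2 CPM values in 1 table, to 2 decimals. Per the submitters' processing notes, Trim Galore 0.4.1, HISAT2 2.0.1, featureCounts 1.4.6 and DESeq2 1.6.3 were used with GRCm38 (mm10). Of the annotation release, strand setting and handling of shared reads nothing is stated in the sources used here. From the values, CPM of 1 or less is listed as 0. Reads recovered from the steps of low values were whole within 0.0051 log2 units for 76.1 to 80.0% of them, so no count test was run.

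Genes above 0 in at least 5 libraries (17435) were fitted in limma 3.58.1 (R 4.3.3) with 1 mean per group over all 20 libraries, a trended variance, 16 residual degrees of freedom and Benjamini-Hochberg adjusted p over all genes, with a threshold of 0.05. No pseudocount was added, and folds are not given for groups at 0. P-values measure the spread between pools. Library pairs within groups correlated at 0.9799 to 0.9945, and no pair was alike within sampling noise. The procedure was tested on simulated data. GENCODE M21 (GRCm38) matched 54276 of 54304 genes, all members included. Members and lists were chosen with earlier results of these data known. Named were up to 10 passing members per direction and comparison with a mean of at least 1 log2 CPM, the 5 most abundant, Cdh1, Cdh2, Cdh3, Cdh5, Cdh11, Cdh13 and Cdh19, and up to 4 partners per list and direction. Further members were named for a full account after their values were seen. Alternatives were log2(CPM + 1), other filters, 2 other scalings, a fit of only the groups compared, a block for the replicate number and each library left out.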

Additional observations from a re-analysis of the deposited data

Results flagged for a closer look

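Within-group values were examined for 32 named members, 128 groups of 5 libraries, and in 7 of them the highest or lowest library stood apart from the other 4 (Dixon's criterion, 0.71 for 5 libraries). By chance about 1 group in 20 would do so.

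Among them, 5 concerned groups whose libraries were at or next to the floor. Pcdh8 was 0.25 log2 CPM in replicate 1 of the FIPs labelled transgenic, with the other 4 at 0.00 to 0.03, and 0.30 in control FIP replicate 5, with the others at 0.00. Control FIP replicate 5 also stood apart for Pcdhb6, at 0.41 with the others at 0.00, and for Cdh3, at 0.30 with the others at 0.00 to 0.05. Pcdh11x was 0.05 in control FIP replicate 3 and 0.00 in the other 4.

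The other 2 were abundant clustered genes. Pcdhgb1 was 4.10 log2 CPM in control FIP replicate 4, with the others at 3.85 to 3.92. Pcdhgb6 was 4.99 in control APC replicate 5, with the others at 5.19 to 5.27, and without that library the genotype difference of Pcdhgb6 in APCs did not pass.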

How the results depend on the processing

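Of 79 passing member differences, 0 reversed under any alternative. The number that lost the threshold was 5 with log2(CPM + 1), 4 without a filter, 2 under median centring, 1 under the trimmed mean of M-values and 12 with only the groups compared. Under the stricter filter of at least 10 libraries above 0 it was 0 of 77. That filter left the remaining calls untested, Cdh6 in mice labelled transgenic and Cdh9 in control mice. The genotype result in APCs was the least stable: 4 members became 2 with log2(CPM + 1), 2 without a filter and 0 with only the groups compared, where limma called 0 of all genes in place of 1396, and the interaction could not be fitted. With 1 library left out, the members called were 29 to 34 for FIPs against APCs in mice labelled transgenic, 35 to 41 in control mice, 0 for genotypes in FIPs, 0 to 8 for genotypes in APCs and 0 to 2 for the interaction (Cdh23 and Cdh5 without replicate 1 of the APCs labelled transgenic, Cdh11 without control APC replicate 1). Cluster sums moved by less than 1 SD under median centring, except for Pcdhgc in control APCs (155.6 in place of 158.8 CPM).

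Pairing by replicate number was not established: deviations of same-numbered FIP and APC libraries of 1 genotype correlated at 0.04 to 0.33 (over 0.1 in 5 of 10 pairs, and 12 of 20 libraries correlated best with their own number), and those across genotypes at -0.32 to 0.15. The labels do not tie numbers to mice. A replicate block by number joined the libraries of that number in all 4 groups, and so mice of different genotypes that no label pairs. With this block, 35 members passed in mice labelled transgenic, 40 in control mice, 1 between genotypes in FIPs (Cdh11), 3 in APCs and 0 for the interaction. Its genotype calls thus rest on a pairing that was not established. The block added Cdh13 and Pcdhb22 in mice labelled transgenic, while Pcdhga11 no longer passed between genotypes in APCs, nor Pcdhb11 and Pcdhga9 in control mice.

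Depth limits members near 1 CPM, which is 6.60 to 8.50 reads, where a value listed as 0 hides any difference below it. Groups listed mostly at 0 also show little spread, so the adjusted p of members near the floor can be too small. Shared exons limit Pcdhg and Pcdha, and 5 pools per group limit small differences.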
